A study of Mus musculus with 24 samples.

Results

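The genes described here encode titin, proteins of the Z-disc and a protein of the M-band: *Actn2*, *Ttn*, *Ldb3*, *Nebl*, *Csrp3*, *Smpx*, *Tcap*, *Myoz2*, *Myom1* and *Ankrd1*. They were taken by name, and all 10 were measured among the 19938 genes of the arrays. *Nebl* was read by 2 probe sets, which were averaged, and each of the other genes by 1. The log2 values of *Tcap* (6.93 to 7.59) and *Myoz2* (5.72 to 7.51) were low, below the median of every array (8.0 to 8.14). *Ttn* and *Actn2* are labelled by the study in its own plots of these arrays. The study also reports changes of muscle structural genes as a group from these arrays. The 10 genes were chosen with earlier results of these data known. The direction of none of them here is therefore independent evidence of the study's result.

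The Z-disc is the border between neighbouring sarcomeres, where α-actinin cross-links the actin thin filaments of both sides. Titin runs from the Z-disc through the elastic I-band to the M-band in the middle of the sarcomere, where myomesin ties the thick filaments together. Many Z-disc proteins also take part in stretch sensing and signalling, and several can move between the Z-disc and the nucleus. In the embryo these genes are switched on as cells of the second heart field leave the progenitor state and join the heart as cardiomyocytes.

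RNA came from the anterior heart field (AHF) of mouse embryos at E9.5, with 19 to 21 somite pairs, and was hybridised to Affymetrix Gene ST arrays, 4 for each of 6 groups and 24 in all. The *Tbx1 LOF* group was Mef2c-AHF-Cre/+;Tbx1 f/- or Mef2c-AHF-Cre/+;Tbx1 f/f, and the *β-cat LOF* group was Mef2c-AHF-Cre/+ with both β-catenin alleles floxed. The rescue group was *Tbx1 LOF* with 1 β-catenin flox allele added. Each mutant group had its own controls: the methods give Cre-free Tbx1 f/+, β-catenin f/+ and Tbx1 f/+;β-catenin f/+ embryos, while the labels name wild type and Cre-carrying Tbx1 f/+ littermates, and the sources do not settle which is right. The Cre acts only in the Mef2c-AHF lineage, and the dissected tissue, described by the study as pharyngeal arches without the heart tube, held other cells too. The methods describe several pools of embryos for each genotype but tie no array to a pool, so the p-values measure the spread between arrays, which may in part be technical. In such bulk tissue, fewer cells of a type and less RNA per cell cannot be told apart.

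Tbx1 was lower in all 4 *Tbx1 LOF* arrays than in all their controls, by 0.64 on the log2 scale (SE 0.09, limma adjusted p = 0.00626), and in all 4 rescue arrays than in theirs (difference -0.31, SE 0.09, adjusted p = 1). *Ctnnb1*, the β-catenin gene, differed by -0.04, -0.03 and -0.05 in *Tbx1 LOF*, *β-cat LOF* and rescue (SE 0.06 each, limma adjusted p = 1, 0.958 and 1). Its arrays overlapped in the first and second, while in rescue all 4 mutants lay below all controls (exact permutation p = 0.0286), so *Ctnnb1* did not separate the *β-cat LOF* arrays from their controls. The 8 AHF markers had log2 values between 9.03 (*Fgf10*) and 11.99 (Tbx1) on all arrays, with no background level to set them against. Beside Tbx1, 4 differences had an unadjusted p under 0.05 in limma for *Tbx1 LOF* and rescue. In *Tbx1 LOF* *Fgf10* (-0.39) and *Eya1* (-0.24) were lower and *Hand2* (0.25) higher, and in rescue *Fgf10* (-0.47) was lower. In *β-cat LOF* *Isl1* was higher (0.16, limma unadjusted p = 0.0492), but not at an unadjusted p under 0.05 without β-cat control replicate 2 (0.09). The part of these in the members' values was not tested. One array stood apart: β-cat control replicate 2 had the highest log2 value of the 24 arrays for 10 of the 10 genes, by 0.28 for *Tcap* up to 1.95 for *Smpx* over the next array. Each result was therefore also computed without it. It widens the spread of every comparison, since 1 fit serves all 24 arrays: the median residual SD of the 10 genes was 0.482 with it and 0.285 without it, against 0.112 and 0.111 over all genes.

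Annotated start sites of 9 of the 10 genes were in the RefSeq table of build GRCm38.p6, which holds 14 windows for them (4 for *Nebl*, 2 each for *Ldb3* and *Csrp3*, 1 for each other gene). The 250 bases before the start are printed here for 5 genes, 5′ to 3′ on the gene's strand, since these 5 windows show how differently the motifs searched for are combined in genes that vary together over the arrays. In *Ttn* (chr2:76982548-76982797, minus strand) the capitals mark a MEF2 site, and in *Ldb3* (chr14:34588608-34588857, minus strand) a CArG box, the site of serum response factor. In *Myom1* (chr17:71019307-71019556, plus strand) they mark a GATA factor site read on the opposite strand and then a CArG box. In *Smpx* (chrX:157698723-157698972, plus strand) they mark 3 GATA factor sites. In *Ankrd1* (chr19:36119845-36120094, minus strand) they mark 2 MCAT elements read on the opposite strand, the T-box site GGTGTGA, and a GATA factor site read on the opposite strand.
Ttn: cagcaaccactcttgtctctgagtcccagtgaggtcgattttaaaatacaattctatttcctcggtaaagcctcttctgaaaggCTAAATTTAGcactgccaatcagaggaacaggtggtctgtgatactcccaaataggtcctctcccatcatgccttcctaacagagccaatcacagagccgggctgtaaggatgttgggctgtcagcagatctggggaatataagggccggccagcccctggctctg
Ldb3: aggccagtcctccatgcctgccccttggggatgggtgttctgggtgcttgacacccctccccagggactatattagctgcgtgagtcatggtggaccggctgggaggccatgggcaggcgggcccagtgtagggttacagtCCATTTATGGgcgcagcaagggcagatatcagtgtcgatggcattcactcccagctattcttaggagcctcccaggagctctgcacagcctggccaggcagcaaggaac
Myom1: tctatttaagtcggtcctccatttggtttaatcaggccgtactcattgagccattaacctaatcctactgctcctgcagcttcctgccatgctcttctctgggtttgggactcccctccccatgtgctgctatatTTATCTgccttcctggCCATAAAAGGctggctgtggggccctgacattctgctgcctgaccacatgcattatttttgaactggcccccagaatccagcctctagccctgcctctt
Smpx: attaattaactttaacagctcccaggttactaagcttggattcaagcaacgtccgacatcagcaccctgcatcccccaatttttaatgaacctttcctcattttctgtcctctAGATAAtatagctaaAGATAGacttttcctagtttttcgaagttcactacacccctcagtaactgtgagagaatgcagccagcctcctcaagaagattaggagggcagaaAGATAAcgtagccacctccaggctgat
Ankrd1: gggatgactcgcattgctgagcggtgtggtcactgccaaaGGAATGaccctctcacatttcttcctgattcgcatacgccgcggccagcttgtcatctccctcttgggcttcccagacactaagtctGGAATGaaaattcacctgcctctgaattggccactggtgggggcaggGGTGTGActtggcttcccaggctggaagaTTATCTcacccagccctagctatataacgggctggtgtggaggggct

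Both strands of all windows were searched for 6 motifs. A CArG box was in windows of 3 of the 9 genes (*Ldb3*, *Nebl* and *Myom1*) and in 1.47% of all 32851 windows of the table. A MEF2 site was in windows of 2 genes (*Ttn* and *Myoz2*), against 2.92% of all windows, and no MEF2 site overlapped a CArG box. A GATA factor site, GATA with A or T before it and A or G after it, was in windows of 6 genes (*Nebl*, *Csrp3*, *Smpx*, *Myoz2*, *Myom1* and *Ankrd1*), against 26.5% of all windows. The T-box site GGTGTGA was found for *Ankrd1* (3.33% of all windows), the TCF/LEF core CTTTGA for *Nebl* (13.8%), and the MCAT element CATTCC for *Nebl* and *Ankrd1* (12.6%). The window of *Actn2* held none of the 6. The shares are per window, while the counts above are per gene. Counted by window, of 14, CArG boxes were in 4, MEF2 sites in 2 and GATA factor sites in 7. The T-box site was in 1, the TCF/LEF core in 1 and the MCAT element in 2. The 2 *Ldb3* windows overlap and hold the same CArG box. These counts describe letters in short windows, and genes with more starts had more windows to hold a match.

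In *Tbx1 LOF* all 10 genes had a higher mean than in the controls, and the mutant and control arrays did not overlap for 6 of them: *Actn2*, *Ldb3*, *Csrp3*, *Smpx*, *Myom1* and *Ankrd1*. The share of all genes that did not overlap in this direction was 1.32%. The largest differences were those of *Smpx* (2.16-fold) and *Actn2* (2.12-fold), and the median log2 fold change of the 10 genes was 0.72, against -0.01 over all genes. The same 6 genes passed the cut used by the study in its dot plots of single mutants (limma's unadjusted p below 0.05 with more than a 1.5-fold difference). This cut is called the study's threshold here, and 0.276% of all genes passed it in this direction. The study's fit had a block for batch, and its rescue analysis used p cuts without a fold change. Here the cut is also applied to rescue and to differences between experiments. None of the 10 reached an adjusted p under 0.05 in limma, as 0.0301% of all genes did. At an unadjusted p under 0.05 there were 6, against 2.17% of all genes in this direction, and 9 (2.75%) without β-cat control replicate 2.

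**Figure D1:**
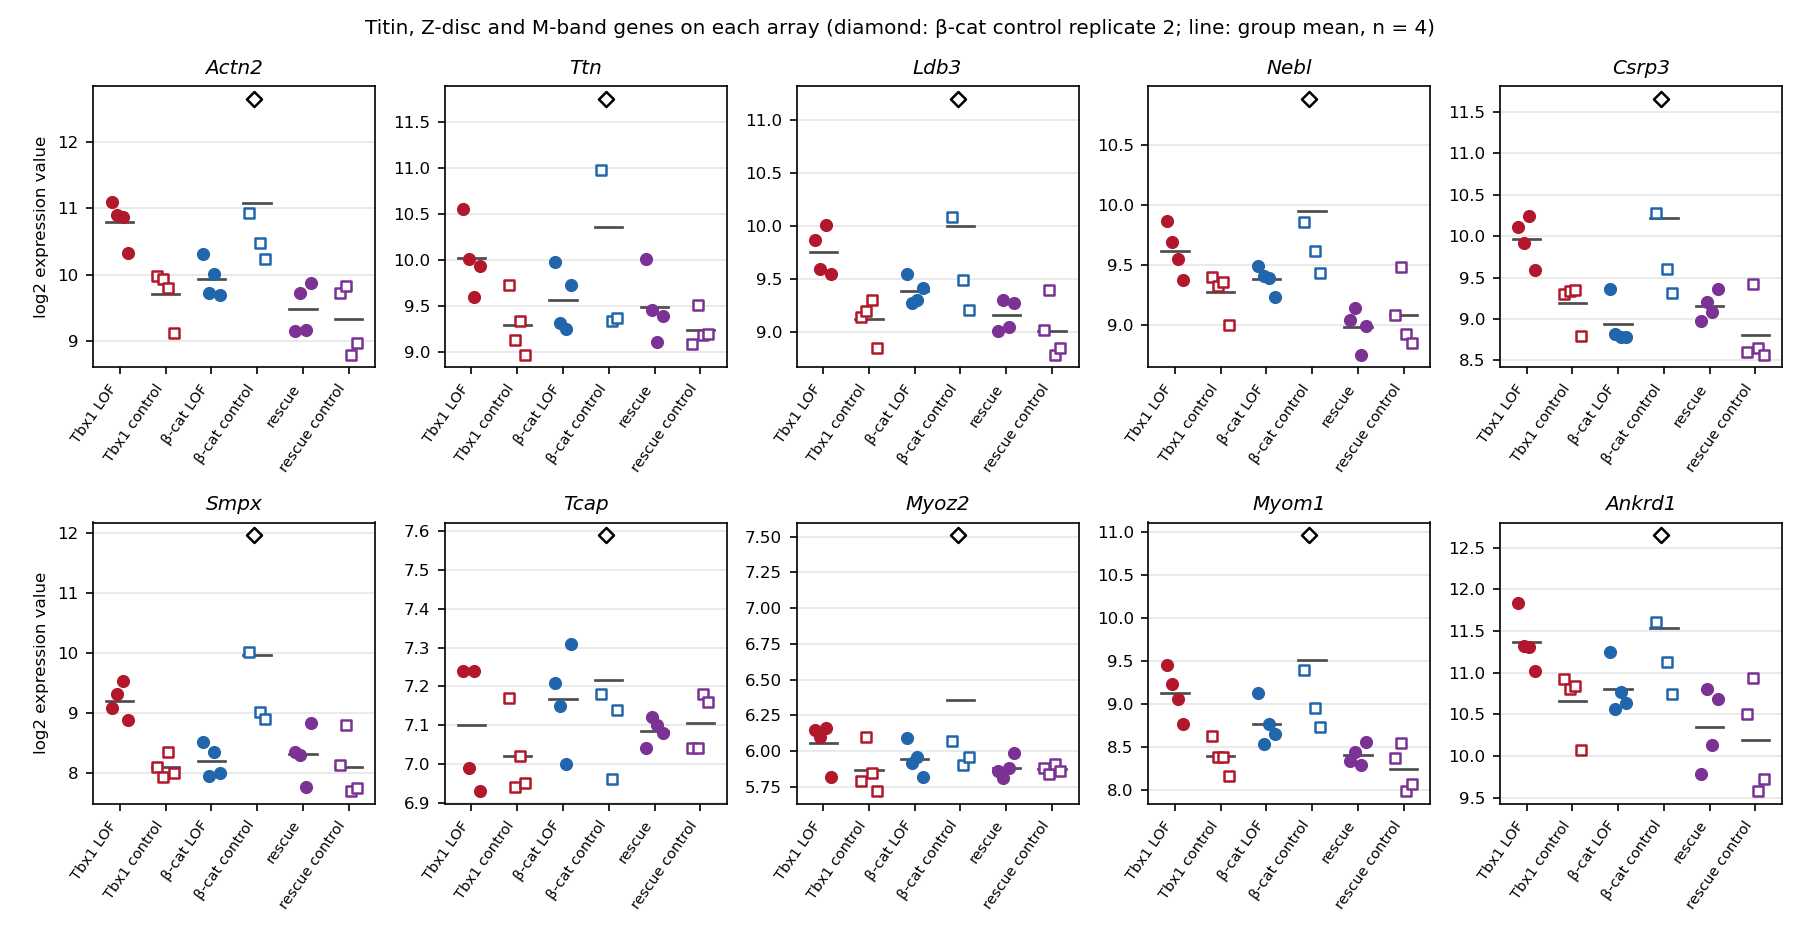
Log2 expression value of each gene on the 24 arrays, with filled circles for mutants, open squares for controls and a line at each group mean (n = 4). The open diamond is β-cat control replicate 2, the highest array in all 10 panels, and the 4 *Tbx1 LOF* circles lie above their 4 control squares in 6 panels.

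Among the Z-disc scaffold genes, *Actn2*, which encodes the muscle α-actinin that cross-links thin filaments, had log2 values of 11.10, 10.90, 10.87 and 10.33 in *Tbx1 LOF* and of 9.99, 9.94, 9.80 and 9.12 in the controls. Every mutant array lay above every control, and the difference was 1.08 (SE 0.36, limma adjusted p = 0.715, exact permutation p = 0.0286, the smallest that 4 arrays against 4 allow). *Ldb3* encodes a PDZ and LIM domain protein that binds α-actinin. Its mutant arrays were at 9.87, 9.60, 10.01 and 9.55 and its controls at 9.14, 9.20, 9.30 and 8.85. The groups did not overlap, with a difference of 0.63 (SE 0.26, adjusted p = 0.991). For *Nebl*, which encodes the cardiac nebulin relative nebulette, the mutant arrays were at 9.87, 9.69, 9.55 and 9.37 and the controls at 9.40, 9.32, 9.36 and 9.0. The lowest mutant fell within the control range, and the difference of 0.35 (SE 0.20) missed an unadjusted p of 0.05 in limma. The 2 *Nebl* probe sets taken alone gave 0.19 and 0.50.

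*Ttn*, the gene of titin itself, was at 10.55, 10.01, 9.60 and 9.93 in *Tbx1 LOF* and at 9.73, 9.13, 9.33 and 8.97 in the controls. Mutant array 3 lay below control 1, so the groups overlapped, and the difference was 0.74 (SE 0.37, limma adjusted p = 1, exact permutation p = 0.0571). At the other end of titin, *Myom1*, the gene of the M-band cross-linker myomesin, was at 9.45, 9.23, 9.06 and 8.77 in the mutants and at 8.63, 8.39, 8.38 and 8.17 in the controls. No mutant overlapped a control, with a difference of 0.74 (SE 0.29, adjusted p = 0.954). *Tcap* encodes telethonin, which caps the Z-disc end of titin, and its values were 7.24, 6.99, 7.24 and 6.93 in the mutants and 7.17, 6.94, 7.02 and 6.95 in the controls. The groups overlapped, and the difference was 0.08 with a 95% interval from -0.13 to 0.29.

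Of the genes tied to Z-disc signalling and stretch, *Smpx*, an X-linked gene of a small protein of the muscle cytoskeleton, was at 9.07, 9.31, 9.53 and 8.87 in *Tbx1 LOF* and at 8.10, 7.92, 8.35 and 7.99 in the controls. The lowest mutant, at 8.87, lay above the highest control, at 8.35, and the difference was 1.11 (SE 0.42, limma adjusted p = 0.901). *Csrp3*, the gene of muscle LIM protein, was at 10.11, 9.92, 10.25 and 9.59 in the mutants and at 9.30, 9.34, 9.35 and 8.80 in the controls. *Ankrd1* encodes an ankyrin repeat protein that binds titin in the I-band and also enters the nucleus, and it was at 11.84, 11.32, 11.31 and 11.02 against 10.93, 10.80, 10.84 and 10.07. Neither gene's groups overlapped, with differences of 0.77 (SE 0.32) for *Csrp3* and 0.71 (SE 0.34) for *Ankrd1*. *Myoz2*, which encodes a calcineurin-binding protein of the Z-disc, was at 6.15, 6.10, 6.16 and 5.82 against 5.79, 6.10, 5.85 and 5.72. Its groups overlapped, with a difference of 0.19 (SE 0.21).

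The count of 6 genes past the study's threshold rested in part on single arrays. It was 3 without *Tbx1 LOF* replicate 1 and 2 without Tbx1 control replicate 4, which was the lowest control array for 8 of the 10 genes. The differences in this experiment are by construction the same without β-cat control replicate 2, and their errors smaller: 7 genes then passed the study's threshold, *Ttn* joining the 6, with 0.296% of all genes passing in this direction. The smallest adjusted p values were then 0.0738 for *Myom1*, 0.0887 for *Actn2* and 0.0910 for *Smpx*. The median difference of the 10 genes was 0.71 in arrays numbered 1 and 2 and 0.67 in arrays 3 and 4.

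Markers of other cells differed in the same arrays. The heart tube chamber list (12 genes, among them *Nppa*, *Myl2* and *Myl7*, with no Z-disc or M-band gene) had 9 genes higher in *Tbx1 LOF*, 4 of them at an unadjusted p under 0.05, and its mean level, as the deviation from the mean of 24 arrays, ran from 0.04 to 0.30 in the mutants and from -0.31 to -0.07 in the controls. The liver, gut and yolk sac list was higher for 9 of 9 genes, 5 at an unadjusted p under 0.05, led by *Afp* (1.39) and *Ttr* (1.34), with levels of 0 to 0.96 in the mutants and -0.26 to 0.39 in the controls. Smooth muscle markers were higher for 6 of 6 genes, 4 at an unadjusted p under 0.05, with levels of 0 to 0.25 against -0.25 to -0.04. Skeletal muscle precursor markers were lower for 6 of 7 genes, 3 at an unadjusted p under 0.05 (*Myf5*, *Myog* and *Pax3*). Endothelial and embryonic erythroid markers had 0 genes at an unadjusted p under 0.05 in limma. Of all genes, 2.17% were higher at that p, and the share lower is not given here. Without β-cat control replicate 2 the counts higher were 6 for the heart tube chambers, 6 for liver, gut and yolk sac and 5 for smooth muscle. The share of all genes was then 2.75%, and 3 skeletal muscle precursor markers were lower. The part of the cells marked by these lists in the values of the 10 genes was not tested.

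**Figure D2:**
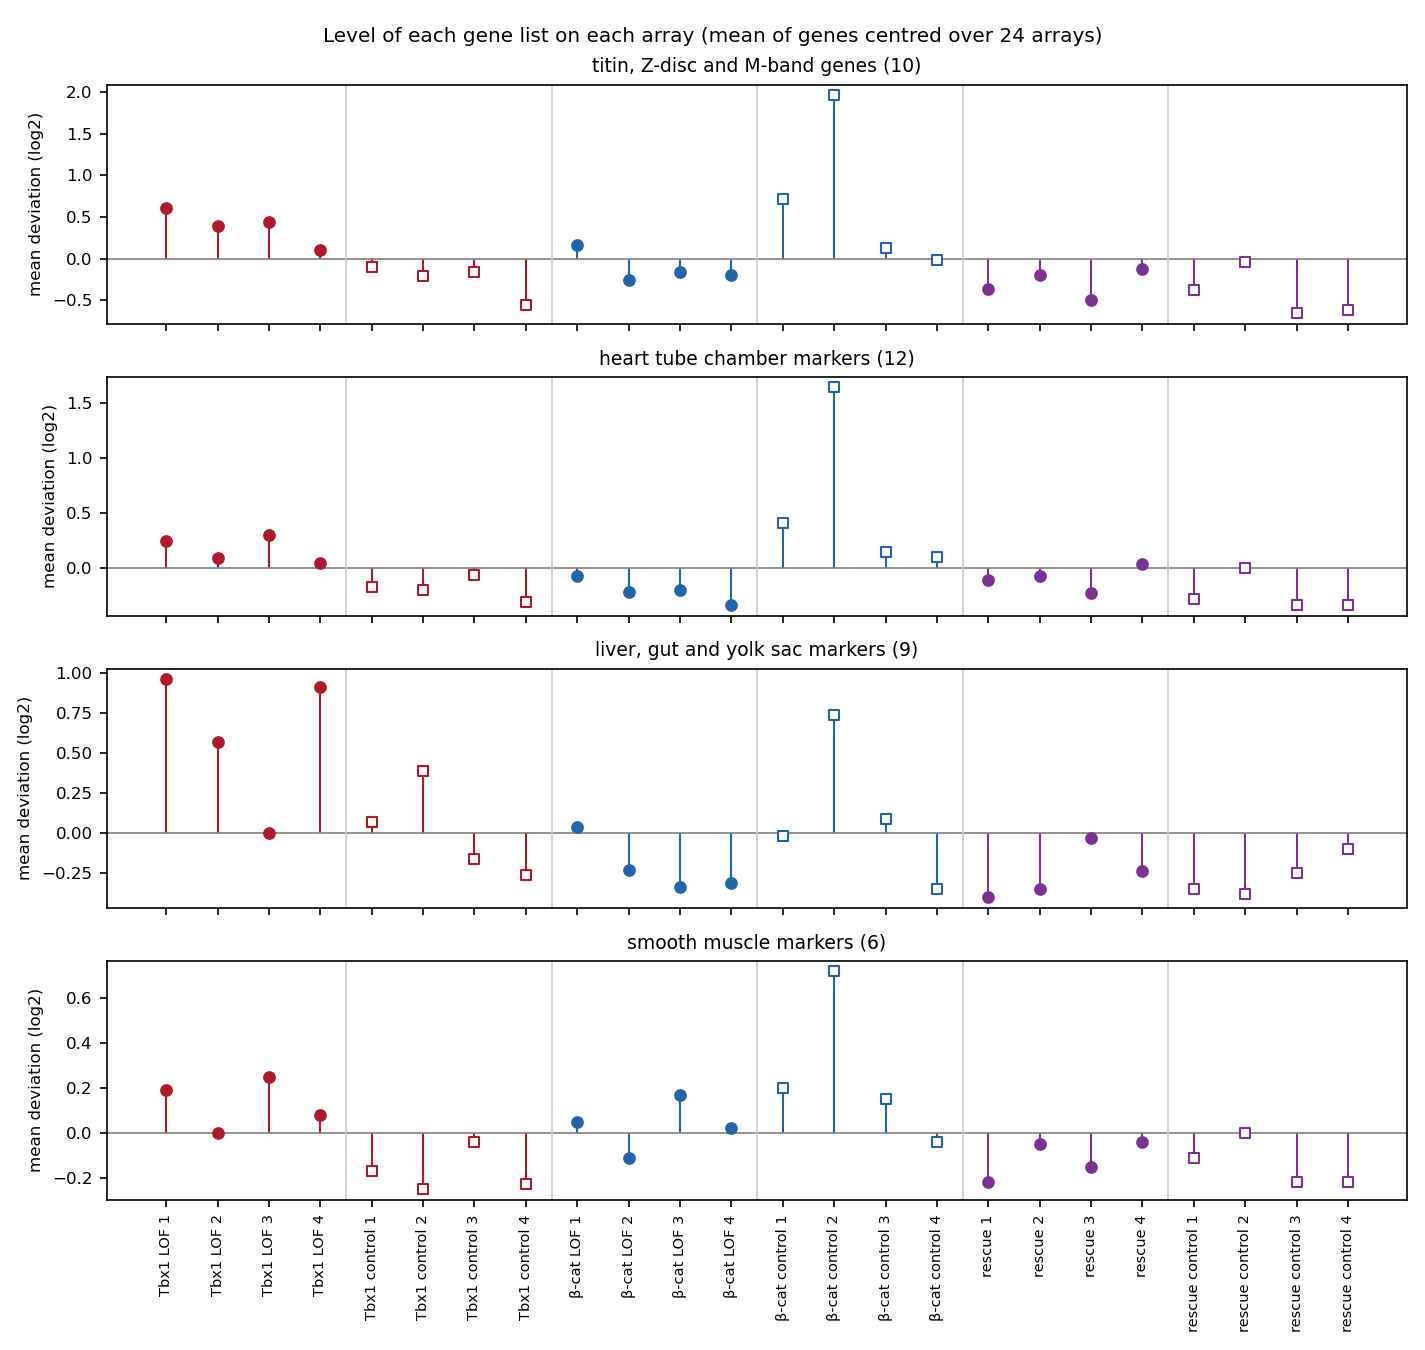
Mean deviation of each gene list from its mean over the 24 arrays (log2), 1 point per array, for the 10 titin, Z-disc and M-band genes and for 3 marker lists. β-cat control replicate 2 is the highest array for the 10 genes (1.96), the heart tube chamber markers (1.64) and the smooth muscle markers (0.72), and *Tbx1 LOF* replicate 1 for the liver, gut and yolk sac markers (0.96).

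In *β-cat LOF* all 10 genes had a lower mean than in their own controls, whose group mean was the highest of the 6 groups for each gene. The median log2 difference was -0.73 against 0.01 over all genes, and -0.29 without β-cat control replicate 2. The study's threshold was passed by 7 genes with all 8 arrays: *Actn2*, *Ttn*, *Ldb3*, *Csrp3*, *Smpx*, *Myom1* and *Ankrd1*, where 0.426% of all genes passed in this direction. It was passed by 3, *Actn2*, *Csrp3* and *Smpx*, without β-cat control replicate 2, against 0.135% of all genes. *Smpx* alone had mutant and control arrays that did not overlap, with or without that array, as did 0.787% and 1.31% of all genes. None of the 10, and 0% of all genes, reached an adjusted p under 0.05 in limma with the full set of arrays; 8 of the 10 had an unadjusted p under 0.05, as 2.88% of all genes did in this direction, but 3 (1.42%) without β-cat control replicate 2.

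*Smpx* showed the largest difference. Its *β-cat LOF* arrays were at 8.51, 7.94, 8.34 and 7.99 and its controls at 10.01, 11.96, 9.01 and 8.89. All 4 mutants lay below all 4 controls, but control 2 was 1.95 above control 1. The difference was -1.78 (SE 0.42, limma unadjusted p = 3.23e-04, adjusted p = 0.537, exact permutation p = 0.0286) with it and -1.11 (SE 0.27, adjusted p = 0.996, exact permutation p = 0.0286) without it.

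*Csrp3* was at 9.36, 8.82, 8.78 and 8.78 in the mutants and at 10.28, 11.66, 9.60 and 9.32 in the controls. Mutant 1 and control 4 crossed. The difference was -1.28 (SE 0.32, adjusted p = 0.560) and -0.80 (SE 0.22, adjusted p = 0.999) without control 2. *Actn2* was at 10.32, 9.72, 10.01 and 9.69 in the mutants and at 10.93, 12.65, 10.48 and 10.24 in the controls. Mutant 1 and control 4 crossed here too, and its difference went from -1.14 (SE 0.36) to -0.61 (SE 0.26) without control 2, both at an unadjusted p under 0.05 in limma.

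For the other genes past the study's threshold the call ended without that control. *Ttn* was at 9.98, 9.31, 9.25 and 9.73 in *β-cat LOF* and at 10.98, 11.75, 9.34 and 9.37 in the controls. Controls 1 and 2 were high and controls 3 and 4 lay inside the mutant range. The difference was -0.79 (SE 0.37), and -0.33 (SE 0.31, limma adjusted p = 0.999) without control 2. *Ldb3*, at 9.55, 9.28, 9.30 and 9.42 against 10.09, 11.20, 9.49 and 9.21, had the lowest value of the 8 arrays in a control. Its difference was -0.61 (SE 0.26), and -0.21 (SE 0.17, adjusted p = 0.999) without control 2. *Myom1* was at 9.13, 8.54, 8.77 and 8.65 against 9.40, 10.96, 8.96 and 8.73, and *Ankrd1* at 11.25, 10.57, 10.77 and 10.64 against 11.61, 12.65, 11.13 and 10.74. Both overlapped, and their differences of -0.74 (SE 0.29) and -0.73 (SE 0.34) became -0.26 (SE 0.17) and -0.35 (SE 0.30).

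The remaining 3 genes did not pass the study's threshold with either set of arrays. *Nebl* was at 9.49, 9.41, 9.39 and 9.23 in the mutants and at 9.86, 10.89, 9.62 and 9.43 in the controls, a difference of -0.57 (SE 0.20, limma unadjusted p = 0.0106) or, without control 2, -0.26 (SE 0.14). Only control 4 lay within the mutant range. *Myoz2* was at 6.09, 5.92, 5.96 and 5.82 against 6.07, 7.51, 5.90 and 5.96, so that its difference of -0.41 (SE 0.21) came down to -0.03 (SE 0.09) without the control at 7.51. *Tcap* was at 7.21, 7.15, 7.0 and 7.31 against 7.18, 7.59, 6.96 and 7.14. Its difference was -0.05 (95% interval -0.26 to 0.16) and turned to 0.07 (-0.10 to 0.25) without control 2.

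The count past the study's threshold also moved with other choices: it was 3 without *β-cat LOF* replicate 2, 4 without *β-cat LOF* replicate 3, 3 when the 8 arrays were fitted alone and 2 with array weights. Without β-cat control replicate 4, the lowest of the controls for 7 of the 10 genes, *Csrp3* (-1.58) and *Smpx* (-2.14) reached an adjusted p of 0.037 in limma, so control replicates 2 and 4 moved the calls in opposite directions. The median difference was -1.29 in arrays numbered 1 and 2, which include β-cat control replicate 2, and -0.69 without that array, against -0.17 in arrays 3 and 4. *Ttn*, for instance, differed by -1.72 in arrays 1 and 2, by -1.34 without control 2 and by 0.14 in arrays 3 and 4, and *Smpx* by -2.76, -1.79 and -0.79. The values without control 2 rest on 1 control array and were computed after seeing the data. The methods describe several batches, but no source ties an array to a batch, so number and batch cannot be told apart here.

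Heart tube chamber markers were lower in *β-cat LOF* for 10 of 12 genes, 7 at an unadjusted p under 0.05, led by *Nppa* (-2.68), and without β-cat control replicate 2 for 9, 5 at that p, with *Nppa* at -1.95. The level of the list ran from -0.34 to -0.08 in the mutants and from 0.10 to 1.64 in the controls, with control 2 at 1.64 and the other controls at up to 0.41. Endothelial markers were lower for 6 of 6 genes, 5 at an unadjusted p under 0.05 (1 without control 2), with levels of -0.21 to 0.01 against -0.02 to 0.31. Smooth muscle markers were lower for 5 of 6 genes, 2 at an unadjusted p under 0.05, and without control 2 for 4, 1 at that p. Liver, gut and yolk sac markers were lower for 9 of 9, 1 at an unadjusted p under 0.05, and without control 2 for 6, 0 at that p. Of all genes, 2.88% were lower at that p in limma, and 1.42% without control 2. On control 2 the smooth muscle list stood at 0.72 and the liver, gut and yolk sac list at 0.74, each the highest of the β-cat experiment. The study describes the dissection as without the heart tube, and whether any array held some of it was not tested. The part of the cells marked by these lists in the differences of the 10 genes was not tested either.

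In rescue embryos no gene of the 10 passed the study's threshold, as 0.01% of all genes did in the higher direction and 0% in the lower, and none had an unadjusted p under 0.05 in limma, as 1.27% of all genes did, or an adjusted one, as 0% did. Of the 10, 8 had a higher mean than in the rescue controls and 2, *Nebl* and *Tcap*, a lower one, with a median log2 difference of 0.15 against -0.02 over all genes. No gene had mutant and control arrays that did not overlap, against 0.737% of all genes higher and 2.24% lower. With all arrays the 95% intervals held the difference seen in *Tbx1 LOF* for 7 of the genes and not for *Actn2*, *Nebl* and *Smpx*. The intervals were shorter without β-cat control replicate 2. Those of *Ldb3* (-0.17 to 0.47), *Myom1* (-0.17 to 0.48) and *Myoz2* (-0.15 to 0.18) then left it out too. Those of *Ttn*, *Tcap* and *Ankrd1* still held it, and that of *Csrp3* ended at it (0.77). These intervals carry no error of the *Tbx1 LOF* difference, so they do not test whether rescue differed from *Tbx1 LOF*. In the direct test, given below, the intervals of all 10 genes included 0 with all arrays. Without β-cat control replicate 2, those of *Actn2*, *Ldb3*, *Nebl*, *Smpx* and *Myom1* lay above 0. Those of the other genes, *Myoz2* among them (-0.05 to 0.42), included it.

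*Csrp3* had the largest difference, with 8.97, 9.20, 9.09 and 9.36 in the rescue arrays and 8.60, 9.42, 8.65 and 8.57 in the controls. Control 2 was above all rescue arrays and the other controls below them, and the difference was 0.34 (95% interval -0.32 to 1.0). *Actn2* was at 9.16, 9.72, 9.17 and 9.87 against 9.72, 9.83, 8.80 and 8.97. Its arrays were mixed, with a difference of 0.15 (-0.60 to 0.89).

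*Ttn* was at 10.01, 9.45, 9.11 and 9.39 in rescue against 9.08, 9.51, 9.18 and 9.19, where rescue array 1 was the highest of the 8. Its difference was 0.25 (-0.51 to 1.0). *Smpx* was at 8.34, 8.29, 7.76 and 8.82 against 8.12, 8.79, 7.69 and 7.74, and the groups spanned nearly the same range, with a difference of 0.22 (-0.65 to 1.09). *Ankrd1* was at 9.79, 10.80, 10.13 and 10.68 against 10.51, 10.94, 9.58 and 9.72, with a difference of 0.16 (-0.53 to 0.86).

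*Ldb3*, at 9.01, 9.30, 9.05 and 9.28 against 9.02, 9.40, 8.79 and 8.85, differed by 0.15, and *Myom1*, at 8.34, 8.44, 8.29 and 8.56 against 8.37, 8.55, 7.99 and 8.07, by 0.16. In both, controls 3 and 4 lay below all rescue arrays and controls 1 and 2 did not. *Nebl* was at 9.04, 9.14, 8.75 and 8.99 against 9.08, 9.48, 8.92 and 8.85, a difference of -0.10 (-0.53 to 0.32). *Myoz2*, between 5.81 and 5.99 in rescue and between 5.84 and 5.91 in the controls, differed by 0.01, and *Tcap*, between 7.04 and 7.12 and between 7.04 and 7.18, by -0.02.

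Array number split the rescue experiment too. In arrays 1 and 2 the median difference of the 10 genes was -0.06, and in arrays 3 and 4 it was 0.37. *Ankrd1* went from -0.43 to 0.76 and *Actn2* from -0.33 to 0.63 between these pairs of arrays. Heart tube chamber levels ran from -0.23 to 0.03 in rescue and from -0.34 to 0 in the controls, and liver, gut and yolk sac levels from -0.40 to -0.03 and from -0.38 to -0.10. With all arrays no gene of either list had an unadjusted p under 0.05 in limma. Leaving out β-cat control replicate 2, 1 heart tube chamber gene was higher at that p. Of the 12 chamber genes 6 were higher and 6 lower in rescue with all arrays, with the largest difference for *Nppa* (1.06, SE 0.60).

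**Figure D3:**
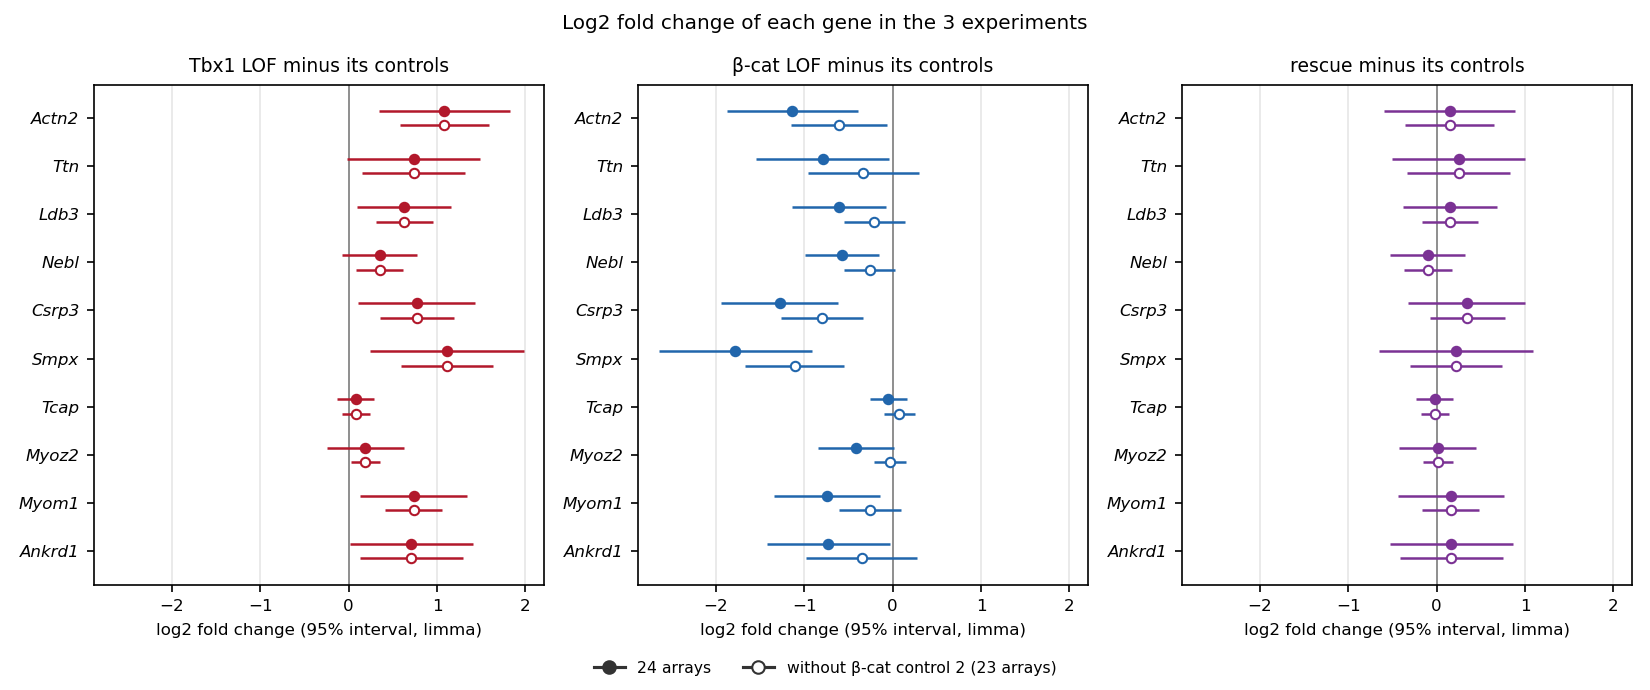
Log2 fold change of each gene against its own controls in the 3 experiments, with 95% intervals from limma; filled points use 24 arrays and open points leave out β-cat control replicate 2. Open points of *β-cat LOF* lie nearer to 0 than filled ones for 9 of the 10 genes and on the other side of 0 for *Tcap*, while the points of *Tbx1 LOF* and rescue keep their place and their intervals shorten.

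Whether the log2 fold change in *Tbx1 LOF* differed from that in *β-cat LOF* was tested directly, as the difference of both differences, each against its own controls. It was positive for all 10 genes, with a median of 1.46 against -0.03 over all genes, and 8 passed the study's threshold, as 1.07% of all genes did in this direction. The genes that did not were *Tcap* (0.13, 95% interval -0.16 to 0.42) and *Myoz2* (0.61, -0.01 to 1.23). The median was 1.03 without β-cat control replicate 2, and again 8 passed, against 0.642% of all genes.

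*Smpx* had the largest difference between the experiments, 2.89 (SE 0.59, limma adjusted p = 0.0773), followed by *Actn2* (2.22, SE 0.51, adjusted p = 0.0972) and *Csrp3* (2.05, SE 0.45, adjusted p = 0.0957). *Ttn* (1.53), *Myom1* (1.48), *Ankrd1* (1.44) and *Ldb3* (1.24) lay between 1 and 2, and *Nebl* at 0.92. With all arrays 0 of the 10 reached an adjusted p under 0.05 in limma, as 0.0502% of all genes did, and 8 had an unadjusted p under 0.05, as 3.41% of all genes did in this direction. Without β-cat control replicate 2, *Smpx* (2.22, SE 0.37, adjusted p = 0.0154) and *Csrp3* (1.57, SE 0.30, adjusted p = 0.0341) reached it, against 0.15% of all genes, and *Actn2* did not (1.69, SE 0.36, adjusted p = 0.0538). Without β-cat control replicate 4, 5 genes reached it, and with a term for arrays 1 and 2 against 3 and 4, 3 did: *Actn2*, *Csrp3* and *Smpx*. The share of all genes was not counted for these last settings. The difference of *Smpx* kept its sign in all settings tried, from 2.22 to 3.25 as single arrays were left out.

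The log2 fold change in *Tbx1 LOF* was above that in rescue for all 10 genes, with a median difference of 0.49 against 0 over all genes, but no gene had an unadjusted p under 0.05 in limma (1.71% of all genes did), or an adjusted one (0%), and none passed the study's threshold, as 0.0351% of all genes did. *Actn2* came nearest, with 0.94 (95% interval -0.12 to 1.99), followed by *Smpx* with 0.89 (-0.34 to 2.12). Leaving out β-cat control replicate 2 changes only the error here: *Actn2* (0.94, SE 0.34) and *Smpx* (0.89, SE 0.35) then passed the study's threshold, against 0.0903% of all genes, each at an adjusted p of 1. At an unadjusted p under 0.05 the count went from 0 to 5 (1.33% of all genes), with *Ldb3* (0.49), *Nebl* (0.45) and *Myom1* (0.58) beside these. Without rescue control replicate 3, 1 gene passed the study's threshold. *Ttn* differed by 0.49 (-0.58 to 1.56) and *Csrp3* by 0.43 (-0.50 to 1.36). At an adjusted p under 0.05 neither set of arrays gave a difference between *Tbx1 LOF* and rescue, and the intervals do not show that they were alike.

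**Figure D4:**
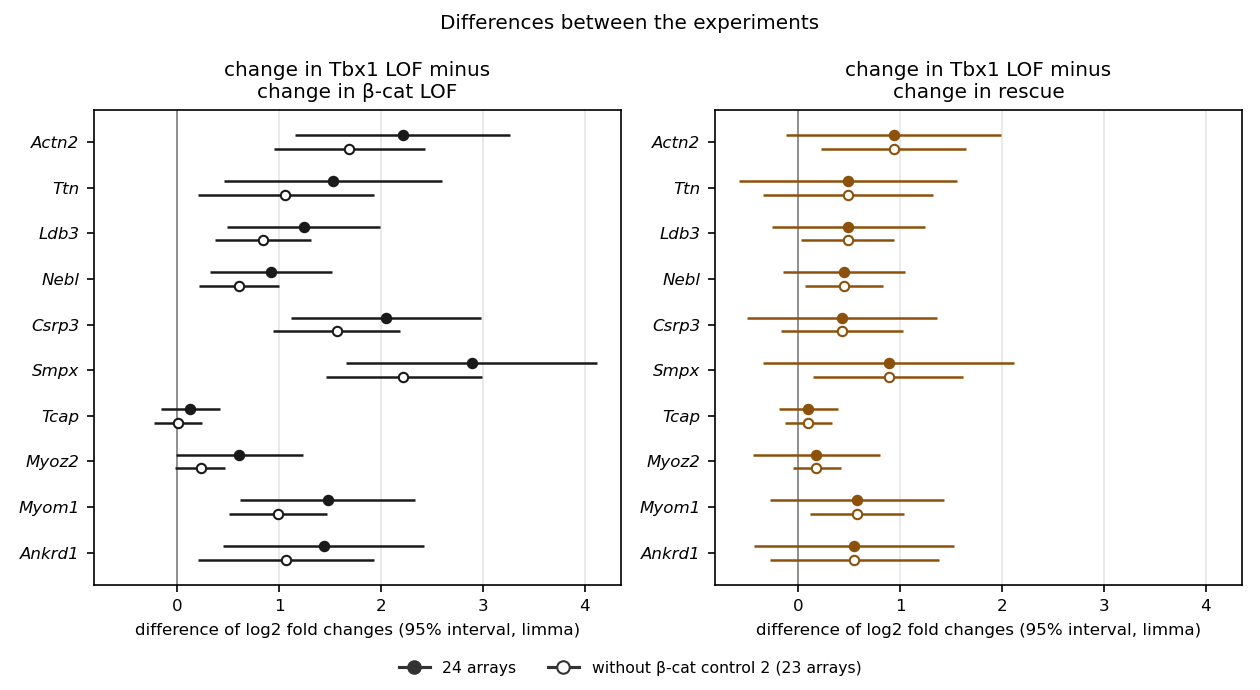
Difference between the log2 fold changes of *Tbx1 LOF* and *β-cat LOF* (left) and of *Tbx1 LOF* and rescue (right) for each gene, with 95% intervals from limma, with 24 arrays (filled) and without β-cat control replicate 2 (open). On the left 8 of the 10 filled intervals lie above 0, and on the right all 10 filled intervals include 0.

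The levels of the control groups were not alike. With all arrays the β-cat controls had the highest group mean of the 6 groups for 10 of the 10 genes, and *Tbx1 LOF* came second for 9, the exception being *Tcap*. With β-cat control replicate 2 left out, the β-cat controls stayed highest for 2 genes, *Nebl* and *Smpx*. The rescue controls had the lowest mean for 7 genes. The *β-cat LOF* mean lay above that of the rescue controls for every gene. It also lay above that of the Tbx1 controls for every gene but *Csrp3*. For *Actn2* it was 9.94 against 9.71 in the Tbx1 controls, and for *Csrp3* 8.93 against 9.20. Of the 5 steps between neighbouring groups in each gene's order, at most 1 had arrays that did not overlap: *Tbx1 LOF* above *β-cat LOF* for *Actn2* and *Ldb3*, *Tbx1 LOF* above its controls for *Csrp3*, and *Tbx1 LOF* above rescue for *Smpx*.

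For *Smpx* the control means were 8.09 ± 0.19 (SD, n = 4) in the Tbx1 experiment, 9.97 ± 1.42 in the β-cat experiment (9.31 ± 0.62 without replicate 2) and 8.08 ± 0.51 in the rescue experiment. For *Actn2* they were 9.71 ± 0.40, 11.07 ± 1.09 (10.55 ± 0.35 without replicate 2) and 9.33 ± 0.52. In limma's F-test over the 3 control groups, 9 of the 10 genes had an unadjusted p under 0.05, as did 13.6% of all genes. *Smpx* reached an adjusted p of 0.0461, as 0.341% of all genes passed 0.05, and none of the 10 did without β-cat control replicate 2, where *Smpx* had 0.0892. That count was unsteady, from 0 to 8 genes over the settings tried, and the share of all genes was not counted for the alternatives. The control groups differ in alleles, in strain (the β-catenin flox mice were of mixed C57Bl/6 and Swiss Webster origin, the Tbx1 flox mice congenic in Swiss Webster) and possibly in batch, which cannot be told apart.

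The 10 genes varied together over the 24 arrays, to unequal degrees. The Pearson r of each gene with the mean of the other 9 ran from 0.599 for *Tcap* to 0.981 for *Myom1*, and without β-cat control replicate 2 from 0.171 for *Tcap* to 0.955 for *Myom1*, with *Ttn* at 0.740 and *Myoz2* at 0.658. *Tcap* and *Myoz2* were the genes with values below the median of every array. Outside the list, the genes whose pattern was nearest to the mean of the 10 were *Mybpc3* (r = 0.986), *Hspb7* (0.983), *Asb2* (0.982), *Lrrc39* (0.979), *Casq1* (0.979), *Mical2* (0.978), *Slc8a1* (0.978) and *Trim55* (0.976). Without that array their r was 0.947 (*Mical2*) to 0.976 (*Casq1*). These are descriptions over arrays that share their groups, and 1 array weighs heavily in them.

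A longer list of 46 other genes of the Z-disc, titin and M-band, of which 44 were measured, had median log2 fold changes nearer to 0. They were 0.04 in *Tbx1 LOF*, -0.08 in *β-cat LOF* and -0.02 in rescue. In *Tbx1 LOF* 8 of the 44 were higher at an unadjusted p under 0.05 (2.17% of all genes) and 0 lower: *Pdlim5*, *Des*, *Cryab*, *Itgb1bp2*, *Csrp2*, *Cfl2*, *Trim55* and *Smyd1*. In *β-cat LOF* 11 were lower (2.88% of all genes) and 0 higher, and 6 were lower (1.42%) without β-cat control replicate 2, with a median of -0.03. In rescue 1, *Synpo2*, which encodes an actin-binding protein of the Z-disc, was at -0.23 (SE 0.09), where 0.898% of all genes were lower at that p. The study's threshold was passed by *Cryab* and *Trim55* in *Tbx1 LOF* and by *Cryab*, *Nexn* and *Trim55* in *β-cat LOF*, and by none of the 44 in *β-cat LOF* without β-cat control replicate 2.

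*Cryab*, which encodes the small heat shock protein αB-crystallin, a chaperone of desmin and titin, was at 11.15, 10.77, 11.11 and 10.67 in *Tbx1 LOF* and at 10.15, 10.13, 10.42 and 10.05 in the controls. It was at 10.27, 10.13, 10.53 and 10.41 in *β-cat LOF* and at 10.94, 12.30, 10.86 and 10.59 in the controls. Neither experiment's groups overlapped, with differences of 0.74 (SE 0.25) and -0.84 (SE 0.25), the latter -0.46 (SE 0.17) without β-cat control replicate 2. *Trim55*, the gene of the titin-associated ubiquitin ligase MuRF2, had differences of 0.68 (SE 0.28) and -0.97 (SE 0.28), again with no overlap in either experiment, and -0.53 (SE 0.19) in *β-cat LOF* without that control. *Nexn*, the gene of the actin-binding Z-disc protein nexilin, had 0.59 (SE 0.29) and -0.70 (SE 0.29), and -0.29 (SE 0.22) in *β-cat LOF* without that control. In rescue *Cryab*, *Trim55* and *Nexn* differed by 0.11, 0.25 and 0.19, each with an unadjusted p over 0.05 in limma. Without β-cat control replicate 2, *Des*, which encodes desmin, reached an adjusted p under 0.05 in limma in *Tbx1 LOF*, as 0.0401% of all genes did, and *Des* and *Cryab* did in the difference between *Tbx1 LOF* and *β-cat LOF*.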

How the data were processed

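Expression was measured on 24 arrays. The deposited values are log2 expression levels that the authors made with RMA in oligo (version not given in the sources used here), with arrays of poor quality left out by them. The methods also name ComBat and a batch block, and no source says whether these values hold them or which array was in which batch. Signal over background is not in the values, and 4 arrays a group limit the precision.

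Of 35556 probe sets, 21789 carried 1 gene symbol, 1621 several and 12146 none; the first kind was averaged to 19938 genes. All 6 groups, from the labels, were fitted together in limma 3.58.1 (R 4.3.3), with Benjamini-Hochberg adjustment over all genes and 18 residual degrees of freedom. Single genes were also tested by exact two-sided permutation. The main fit was tested on simulated data with independent normal errors and known shifts in the *Tbx1 LOF* arrays alone. Those data held no array that moves many genes together, so the test does not cover the effect of β-cat control replicate 2. Figures were drawn with matplotlib 3.10.9.

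The members, marker lists and tests were chosen with earlier results of these data known. Outside the members, genes are named if past the study's threshold or among the 3 largest log2 fold changes of their list in a comparison, or, as a description, if among the 8 with the highest correlation with the mean of the 10 genes. Other genes stand as list examples, chosen after their values were seen. The deviations of same-numbered mutant and control arrays had r from 0.157 to 0.494 in *Tbx1 LOF*, 0.0889 to 0.479 in *β-cat LOF* and -0.0638 to 0.256 in rescue. Of 4 mutant arrays, 4, 3 and 1 had an r over 0.1 with the control of their own number, the limit set for a pairing. Only 1, 2 and 1 correlated best with it, so a pairing by number is not settled. The labels give no reason for pairing. Alternatives left out each array, used array weights, a replicate block, a term for array number, further normalization, a filter on low values, other probe set rules, trended moderation or the 8 arrays of an experiment alone.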

Additional observations from a re-analysis of the deposited data

Results flagged for a closer look

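In 6 of the 60 sets of 4 arrays (10 genes in 6 groups), 1 array lay far from the other 3 by Dixon's test, where chance alone gives about 3, or 1 in 20. *Csrp3* was at 8.80 in Tbx1 control replicate 4 (nearest 9.30), at 9.36 in *β-cat LOF* replicate 1 (nearest 8.82) and at 9.42 in rescue control replicate 2 (nearest 8.65). *Myoz2* was at 7.51 in β-cat control replicate 2 (nearest 6.07) and at 5.82 in *Tbx1 LOF* replicate 4 (nearest 6.10). *Ankrd1* was at 10.07 in Tbx1 control replicate 4 (nearest 10.80).

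*Smpx* differed between both experiments in opposite directions, with no overlap between mutant and control arrays in either: all 4 *Tbx1 LOF* arrays were above and all 4 *β-cat LOF* arrays below their controls. The difference between its log2 fold changes was 2.89 (limma adjusted p = 0.0773, and 0.0154 without β-cat control replicate 2). Over the alternatives its adjusted p ran from 0.00797 to 0.215.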

How the results depend on the processing

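The differences in *Tbx1 LOF* and those between *Tbx1 LOF* and *β-cat LOF* kept their sign for all 10 genes under every alternative tried. The count of genes past the study's threshold in *Tbx1 LOF* (6) ran from 2 to 7 as single arrays were left out, with 2 without Tbx1 control replicate 4 and 3 without *Tbx1 LOF* replicate 1. In *β-cat LOF* (7) it ran from 3 to 8, and was 3 with the 8 arrays fitted alone and 2 with array weights. The count at an adjusted p under 0.05 in *β-cat LOF* ran from 0 to 2 (2 without β-cat control replicate 4). For *Tbx1 LOF* against *β-cat LOF* that count ran from 0 to 5 (2 without β-cat control replicate 2 and 5 without β-cat control replicate 4), and was 3 with a term for array number, while the median difference ran from 1.03 to 1.72. For *Tbx1 LOF* against rescue the count past the study's threshold ran from 0 to 2 (2 without β-cat control replicate 2, 1 without rescue control replicate 3) and was 1 with array weights. For these results the cause was not tested. Shares of all genes past each cut were counted only with all arrays and without β-cat control replicate 2.

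The count of genes differing among the 3 control groups at an adjusted p under 0.05 (1, *Smpx*) ran from 0 to 7 as single arrays were left out (7 without β-cat control replicate 4). It was 7 with the replicate block and 8 with a term for array number, 2 with array medians subtracted, with quantile normalization repeated or with the filter on low values, and 0 with trended and robust moderation. These alternatives, and each *Nebl* probe set alone, were chosen after seeing the data.

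Signs turned for small differences. In *β-cat LOF* *Tcap* was at 0.01 with array weights and between -0.14 and 0.07 without single arrays. In rescue *Tcap* was at 0.01 with quantile normalization repeated. Without single arrays the rescue differences ran from -0.04 to 0 for *Tcap*, from -0.02 to 0.04 for *Myoz2*, from -0.18 to 0.03 for *Nebl*, from -0.03 to 0.31 for *Actn2* and from -0.04 to 0.41 for *Ankrd1*.

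With same-numbered arrays paired (replicate block, 9 residual degrees of freedom), 7 genes passed the study's threshold in *Tbx1 LOF*, 7 in *β-cat LOF*, 0 in rescue and 0 for *Tbx1 LOF* against rescue, and 9 for *Tbx1 LOF* against *β-cat LOF*, with 0 at an adjusted p under 0.05. Of the counts given, the block moved that of the control groups alone by over 1.5 times. Of the *Tbx1 LOF* pairs, all 4 had an r over 0.1, and 1 of 4 arrays correlated best with its own number. The filter on low values dropped *Myoz2*, and fitting 8 arrays alone gives no difference between experiments.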
